A study of Neurospora crassa with 4 samples.

Results

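In *Neurospora crassa*, 193 genes had at least 2 poly(A) peaks in both control libraries and exactly 1 in both libraries of a mutant without Cleavage Factor I (CFIm), and they are called the collapsed genes here. A poly(A) peak is a pileup of 3′ end reads within the 3′ UTR region of a gene, and it marks a place where the poly(A) tail is added. The members were taken from the peak numbers in the study's own list of 1447 genes with several peaks in control and/or mutant, so their loss of peaks is how they were chosen and not a finding. All 193 were among the 7793 genes of the expression table, and all 193 had enough reads to be tested (at least 10 normalized counts on average across libraries), as 6949 of the 7793 genes did.

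CFIm is built from CPSF5 and CPSF6, a pair of proteins that binds nascent mRNA upstream of the cleavage site and takes part in the choice of where the transcript is cut and the poly(A) tail is added. Alternative polyadenylation (APA) is the use of more than 1 such site in a gene. Where the sites lie in the 3′ UTR, the mRNAs encode the same protein but carry 3′ UTRs of different length, which can hold different binding sites for proteins that act on stability, export or translation.

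The libraries were made by 3′ End Sequencing, which reads 1 tag from the end of each transcript, in biological duplicates of 2 strains. The control was strain 1785-1, a *MAT A* strain with the c-box luciferase reporter and the *bar* resistance marker at *csr-1*. The ΔCFIm mutant was strain 2029, in which *cpsf5* (NCU09014) and *cpsf6* (NCU02152) were both replaced by *hph* and which carries the same reporter and marker at *csr-1*. Its label gives no mating type. Both strains grew on cellophane-covered plates of medium that held glucose at 0.25% w/v and arginine at 0.17% w/v, for 72 h at 25°C in constant light. Each genotype is a single strain with 2 cultures, so the p-values measure the spread between these cultures, and a difference between strains other than the deletions cannot be told apart from them.

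Between 5572762 and 6053869 reads per library fell on genes, and 1 read was worth 0.967 to 1.05 normalized counts. Control libraries had 214 and 192 normalized counts of *cpsf5* and 141 and 159.5 of *cpsf6*. In ΔCFIm, *cpsf5* had 2.96 and 0, and *cpsf6* had 25.7 and 26. The mating type gene *matA-1* had 152 and 160.5 in the controls but was at 0 in each ΔCFIm library, and the strains also differed at the mating type locus. Log2 expression correlated with a Pearson's r of 0.987 between controls, 0.982 between ΔCFIm libraries and 0.948 to 0.960 across genotypes, over genes, which are not independent replicates.

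Most collapsed genes went from 2 peaks to 1. Of the 193 genes, 167 had 2 peaks in both controls, 10 had 3 in both and 2 had 4 in both. In the other 14 genes the controls differed from each other, with 2 and 3 peaks in 8 genes, 3 and 2 in 5, and 2 and 4 in 1. Just outside the rule, 92 genes had at least 2 peaks in both controls but kept at least 2 in 1 of the ΔCFIm libraries. The study's list held 0 genes with at least 2 peaks in exactly 1 control and 1 in both ΔCFIm libraries. Such genes may have been kept out by how the list was built, so this 0 is no result about the controls.

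The list held 1225 genes with at least 2 peaks in both controls, of which the collapsed genes were 15.8%. When these genes were divided by their control mean into 5 equal groups, collapse was most frequent in the lowest. In that group (81.3 to 275 normalized counts), 61 of 245 genes collapsed, or 24.9%. The share was 16.7% in the next group, 14.3% in the middle one, 11% in the one above and 11.8% in the highest (1470 to 70006 normalized counts). A gene with fewer reads gives a peak caller fewer reads per peak, and the part of read depth in the collapse was not tested.

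**Figure D1:**
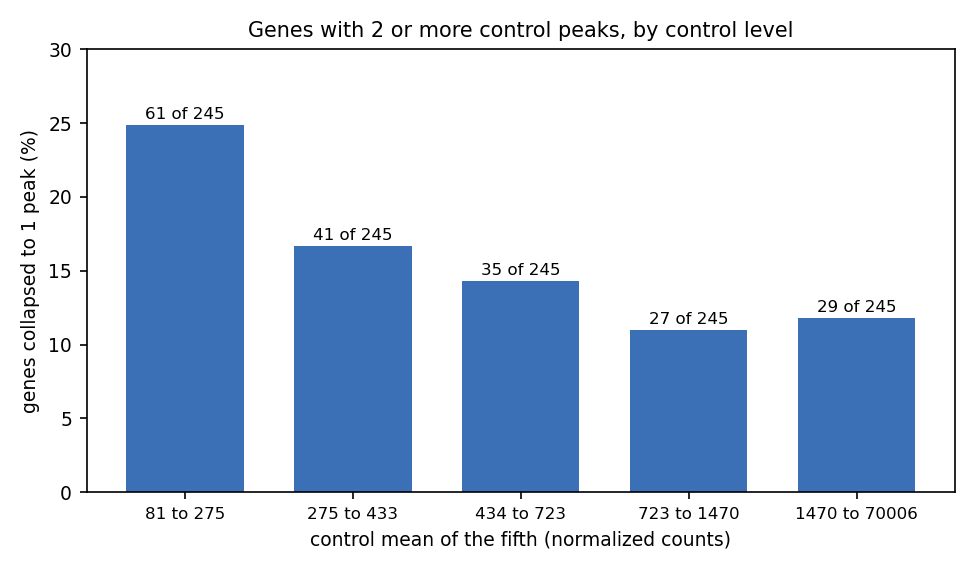
Share of genes collapsed to 1 peak (%), among the 1225 genes with at least 2 peaks in both controls, in 5 groups of 245 genes by their mean in the control libraries (normalized counts). The bar is highest in the group of lowest expression, at 24.9%, and lies at 11% and 11.8% in the groups of highest expression; the bars are counts of genes and carry no error.

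All collapsed genes had reads in every library, which follows from the rule, since a peak is a pileup of reads. Their control means ran from 86.4 (NCU02158) to 25674 (*cot-3*) normalized counts with a median of 414, and the fewest reads on any collapsed gene in any library were 61. The median control mean was 605 for the 940 genes with at least 2 peaks in all libraries, 428 for the 123 genes with 1 peak in both controls and at least 2 in both ΔCFIm libraries, and 202 for all genes in the table. The whole table includes genes at 0, while genes with peaks needed reads to form them, so their higher medians are not a finding. Together the collapsed genes took 4.09% and 4.01% of the reads on genes in controls and 4.06% and 4.25% in ΔCFIm. The share that these genes took of the libraries was thus higher in one ΔCFIm library than in either control and between them in the other.

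Whether the level of the transcript moved along with the loss of peaks was asked by comparing ΔCFIm with control gene by gene, with limma on log2(normalized count + 1) and Benjamini-Hochberg adjustment over all tested genes. At an adjusted p under 0.05, 13 of the 193 collapsed genes passed, or 6.74%, beside 8.0% of all tested genes. Of these, 8 were higher in ΔCFIm (4.62% of all tested genes were) and 5 were lower (3.38%). Without adjustment, 44 collapsed genes had a p under 0.05, where 22.5% of all tested genes did. The control and ΔCFIm libraries did not overlap in 109 collapsed genes, 45 higher and 64 lower, beside 52.4% of all tested genes (25.9% higher and 26.5% lower). Because peak numbers and levels come from the same reads, these counts describe the members and are no test of them.

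Most collapsed genes had a small difference in level. The median log2 fold change was -0.05, with quartiles at -0.24 and 0.19, and the median over all tested genes was -0.01. In 169 genes the log2 fold change was within 0.5 of 0 in either direction, and in 3 genes it was at least 1. These were NCU08055, NCU00644 and NCU07449. The collapsed genes had 86 positive and 107 negative log2 fold changes, and all tested genes had 3400 and 3549. The 940 genes with at least 2 peaks in all libraries also leaned to negative values, with 417 positive and 523 negative (median -0.04). The collapsed genes with 2 peaks in both controls had 67 positive and 100 negative log2 fold changes, with a median of -0.08. The 12 genes with at least 3 peaks in both had 8 positive and 4 negative, with a median of 0.17. The median absolute log2 fold change over the collapsed genes was 0.23. Their median absolute log2 difference was 0.13 between the controls and 0.21 between the ΔCFIm libraries, beside 0.18 and 0.24 over all tested genes. These differences are between single libraries, while a fold change compares means of 2, so they are not like for like.

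**Figure D2:**
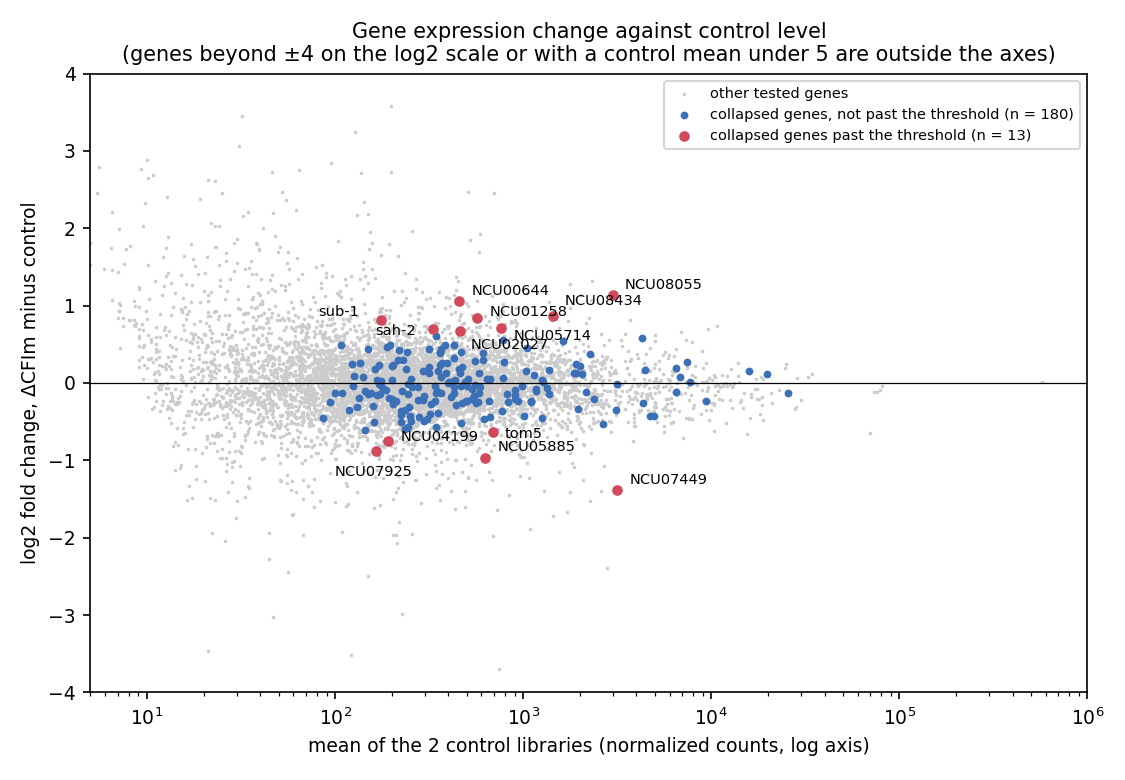
Log2 fold change (ΔCFIm minus control, vertical axis) against the mean of the control libraries (normalized counts, log axis), with a point for each tested gene inside the axes. The 13 named collapsed genes past the limma threshold lie between -1.38 (NCU07449) and 1.14 (NCU08055), among 180 collapsed genes that did not pass.

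Of the genes for transcription factors and chromatin proteins, 3 of 18 rose in ΔCFIm, beside 4.62% of all tested genes, and the others did not pass the test. The count was 0 without control replicate 2, 2 without control replicate 1, and 1 with no filter on low values or with eBayes fitted without a trend. Without ΔCFIm replicate 1, 1 gene of the group was higher and 2 were lower. NCU08055, on linkage group I (117750 to 119387, NC12 assembly), encodes a putative bZIP transcription factor and had 3 peaks in each control. Its level was 3364 and 2610.3 normalized counts in the controls and 7407 and 5746 in ΔCFIm. It was the largest rise among the collapsed genes, with a log2 fold change of 1.14 (SE 0.20, limma adjusted p = 0.00344). The *sub-1* gene (NCU01154, linkage group V, 3059102 to 3062061) encodes a GATA-type transcription factor named for the submerged protoperithecia, the young female fruiting bodies, of its mutant. It had 189 and 160.5 normalized counts in the controls and 353 and 269 in ΔCFIm. Both mutant libraries lay above both controls, with a log2 fold change of 0.82 (SE 0.20, limma adjusted p = 0.0243). The *sah-2* gene (NCU04731, linkage group VI, 581298 to 586798), annotated as a putative sterol regulatory element binding protein, had 321 and 344 in controls and 616 and 476 in ΔCFIm. Its log2 fold change was 0.70 (SE 0.19, limma adjusted p = 0.0345).

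The other regulators of this group had smaller differences. The nitrogen regulator *nit-2*, a GATA factor that activates genes for the use of secondary nitrogen sources, had 305 and 373 normalized counts in the controls and 303 and 272 in ΔCFIm (log2 fold change -0.23, SE 0.19). These libraries did not overlap, though the lowest control and the highest mutant value were nearly the same. The *dap-1* gene, for a protein associated with the DNA methyltransferase DIM-2, had 1025 and 1163 in controls and 973 and 878 in ΔCFIm (-0.24, SE 0.17). The *dmm-2* gene, for a modulator of DNA methylation, had 170.1 and 203 against 177 and 172, with overlap. The gene *crf4-1*, for an ISWI-type remodelling ATPase, had 498 and 613 in controls and 693 and 653 in ΔCFIm, and the JmjC histone demethylase gene NCU03505, with 3 peaks in each control, had 431 and 395 against 418 and 415. Over the 18 genes the median log2 fold change was -0.10, and 13 genes lay within 0.5 of 0 in either direction. The lowest value, -0.52, was that of a gene not described here.

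The metabolic and transport genes held 4 of the 13 that passed, 3 higher and 1 lower, among 31 genes with a median log2 fold change of -0.08. Of all tested genes, 4.62% were higher and 3.38% lower. Without control replicate 2 the group had 0 calls, with no filter or no trend it had 2, and without ΔCFIm replicate 1 it had 6, of which 4 were lower. NCU08434 (linkage group II, 4053447 to 4055704), annotated as 5-methyltetrahydropteroyltriglutamate-homocysteine methyltransferase, the name of an enzyme that makes methionine, had 1434 and 1429 normalized counts in the controls and 3285 and 2090.1 in ΔCFIm. The controls were nearly equal and the mutant libraries, though both higher, were far apart, so the log2 fold change of 0.87 had an SE of 0.21 (limma adjusted p = 0.0217). NCU01258 (linkage group V, 3397870 to 3399150), annotated as *cyanate-1*, a name for the lyase that breaks down cyanate, had 591 and 547 in controls and 922 and 1124 in ΔCFIm (log2 fold change 0.84, SE 0.18, limma adjusted p = 0.0103). NCU02027 (linkage group I, 1632189 to 1633702), for acyl-protein thioesterase 1, an enzyme that removes fatty acids from proteins, had 465 and 461 in controls and 852 and 645 in ΔCFIm. Its log2 fold change was 0.68 (SE 0.18, limma adjusted p = 0.0391), with both mutant libraries above both controls.

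The metabolic gene that fell was NCU05885 (linkage group VII, 4162091 to 4165498), annotated as *monooxygenase-5*. It had 576 and 675 normalized counts in the controls and 349.8 and 291 in ΔCFIm, and its log2 fold change was -0.96 (SE 0.18, limma adjusted p = 0.00564). In the annotation its end overlapped the next gene, NCU14144, by 48 bp. The *pyr-4* gene, for the orotidine-5′-phosphate decarboxylase of uridine synthesis, had 1098 and 918 in controls and 874 and 632 in ΔCFIm, without overlap but also without passing the test (limma adjusted p = 0.210). The thioredoxin gene NCU02520 had 364 and 355 against 505 and 441 and did not pass either. The most abundant gene of the group, NCU06652, annotated as *hydroxymethylglutathione dehydrogenase-2*, had 6785 and 6257 in controls and 5476 and 6562 in ΔCFIm, with overlap.

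Of 10 genes for mitochondrial proteins, 1 rose and 1 fell, beside 4.62% and 3.38% of all tested genes. The fall was lost without either control, without ΔCFIm replicate 1, with no filter, with no trend and with DESeq2, and without a ΔCFIm library 3 genes of the group passed. NCU00644 (linkage group I, 7721242 to 7723313), annotated as *ATP synthase-3*, had 453 and 458 normalized counts in the controls and 1065 and 852 in ΔCFIm. The rise was about as large in log2 as that of the bZIP gene NCU08055, at 1.06 (SE 0.18, limma adjusted p = 0.00255). The *tom5* gene (NCU02474, linkage group I, 2432597 to 2433504), for a small subunit of the complex that imports proteins through the outer membrane, had 659.5 and 714 in controls and 411 and 476 in ΔCFIm. Its log2 fold change was -0.63 (SE 0.17, limma adjusted p = 0.0406), the smallest change among the 13 genes, and its annotated end overlapped NCU02473 by 149 bp. NCU05778, annotated as *iron-sulfur subunit-8*, was the most abundant of the group, with 3838 and 4728 in controls and 5458 and 7423 in ΔCFIm, and did not pass (log2 fold change 0.58, SE 0.20, limma adjusted p = 0.102).

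A pair of pyruvate dehydrogenase genes, *ace-2* and *ace-3*, was among the collapsed genes. The enzyme joins glycolysis to the citric acid cycle. The *ace-2* gene, for the α subunit of the E1 component, had 373 and 394 normalized counts in the controls and 491 and 588 in ΔCFIm (log2 fold change 0.49, SE 0.18), and *ace-3* had 2019.6 and 1723 against 2105 and 1962 (0.12, SE 0.17). Neither passed the test. The study's list held 5 genes annotated to pyruvate dehydrogenase, of which 3 had an unadjusted p under 0.05, beside 22.5% of all tested genes. At the limma threshold 1 fell, NCU00050 for the X component, with a log2 fold change of -0.72, and 0 rose. Of all tested genes, 4.62% were higher and 3.38% lower at that threshold. The count at the threshold was 0 with no filter and with no trend, and it also changed whichever library was left out.

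Among the translation genes, 1 of 14 rose (7.14%, beside 4.62% of all tested genes), and the call was lost without either control and with eBayes fitted without a trend. That gene, NCU05714 (linkage group III, 605738 to 607565), annotated as the 50S ribosomal subunit protein L15, had 777 and 753 normalized counts in the controls and 1111 and 1417 in ΔCFIm (log2 fold change 0.71, SE 0.18, limma adjusted p = 0.0265). The *cot-3* gene, for elongation factor 2, which moves the ribosome along the mRNA, was the most abundant collapsed gene, with 25596 and 25751 in controls and 24614 and 22237 in ΔCFIm. Its controls differed by less than its mutant libraries, and the log2 fold change was -0.13 (SE 0.20). Elongation factor 3 (NCU07922), a fungal factor that acts at the ribosomal exit site, had 7902 and 7569.9 in controls and 6837 and 8903 in ΔCFIm. The gene for the α subunit of the nascent polypeptide-associated complex (NCU00635), which binds new proteins as they leave the ribosome, had 1063 and 1478 against 1239 and 1291. Both of these overlapped between genotypes, with log2 fold changes of 0.01.

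In protein turnover, 0 of 12 genes passed the limma threshold, beside 8.0% of all tested genes. An unadjusted p under 0.05 was found in 3, beside 22.5% of all tested genes, and edgeR and DESeq2 also called 0. This group included 3 genes of the regulatory particle of the 26S proteasome, which recognises and unfolds ubiquitinated proteins. The *rpn-1* gene had 1154 and 942 normalized counts in the controls and 1441 and 1412 in ΔCFIm (log2 fold change 0.45, SE 0.17). The *rpn-11* gene, for the subunit that removes ubiquitin, had 3 peaks in each control and 247 and 260.1 against 291 and 237 normalized counts, with overlap. NCU05363, annotated as regulatory subunit 8, had 4 peaks in each control and 658 and 558 against 876 and 628 normalized counts, also with overlap. Its annotated end ran 84 bp into NCU05364, a gene on the opposite strand that rose in ΔCFIm with a log2 fold change of 1.00. In the study's list, 14 genes were annotated to the proteasome, of which 0 passed in either direction and 5 had an unadjusted p under 0.05. Of the 14 genes, 9 had a positive and 5 a negative log2 fold change, and the median was 0.18.

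The ubiquitin genes of this group did not pass the test either. The *scon-2* gene, for an F-box protein of the sulfur control system, had 2 and 4 peaks in the controls. Its level was 2104 and 2227 normalized counts in the controls and 2033 and 1963 in ΔCFIm (log2 fold change -0.12, SE 0.17). The *mus-8* gene, for a Rad6-type ubiquitin-conjugating enzyme of DNA repair, had 498 and 417 against 491 and 547, and NCU05592, *ubiquitin-conjugating enzyme-2*, had 389 and 320.0 against 487 and 317, both with overlap. The gene furthest from 0 was NCU01928, for a putative subunit of the DSC ubiquitin ligase complex, with 241 and 246 in controls and 155 and 174 in ΔCFIm. It did not pass (log2 fold change -0.56, SE 0.19, limma adjusted p = 0.0850).

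The 13 signalling genes had the lowest median of the role groups, -0.25, with 10 negative and 3 positive log2 fold changes. Of them 0 passed the test, beside 8.0% of all tested genes, and edgeR and DESeq2 called 0. An unadjusted p under 0.05 was found in 1, beside 22.5% of all tested genes. The *nor-1* gene, for the regulator of NADPH oxidase, had 153 and 169 normalized counts in the controls and 109.7 and 118 in ΔCFIm (log2 fold change -0.50, SE 0.20, limma adjusted p = 0.151). The *cry* gene, for a cryptochrome of the DASH type, a blue-light receptor flavoprotein, was the most abundant of the group with 4109.6 and 4558 in controls and 2919.7 and 4506 in ΔCFIm. Only ΔCFIm replicate 1 lay apart, and replicate 2 lay between the controls. The kinase gene *stk-4* overlapped between genotypes, with 468 and 391 against 474 and 357.

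Among the signalling genes were serine-threonine phosphatases with opposite signs. NCU02150, *serine-threonine protein phosphatase-1*, had 351 and 355 normalized counts in the controls and 219 and 332 in ΔCFIm (log2 fold change -0.39, SE 0.21). NCU09861, *serine-threonine protein phosphatase-6*, had 4 peaks in each control, and had 496 and 443 normalized counts in the controls and 733 and 519 in ΔCFIm (0.40, SE 0.20). Neither passed the test. In the study's list, 13 genes had a product name with the words protein phosphatase, and 4 of them were collapsed, beside 193 of all 1447. The name was the only ground for this grouping, which includes *cyt-4* (collapsed) and *gul-1*, and what the products do was not checked. At the limma threshold 1 rose (NCU05364, which was not collapsed) and 0 fell, with a median log2 fold change of 0.01 over the 13 genes. Of all tested genes, 4.62% were higher. The phosphatases had 2 calls without ΔCFIm replicate 1 and 3 without ΔCFIm replicate 2.

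The 11 cell wall genes had the highest median of the role groups, 0.15. Of them 0 passed the test, beside 8.0% of all tested genes, and edgeR and DESeq2 called 0. An unadjusted p under 0.05 was found in 1, beside 22.5% of all tested genes. The *chit-1* gene, for a chitinase, which cleaves the chitin of the wall, had 3 peaks in each control. Its level was 735 and 829 normalized counts in the controls and 1448 and 904 in ΔCFIm (log2 fold change 0.55, SE 0.21, limma adjusted p = 0.142). The distance from the controls was larger in ΔCFIm replicate 1 than in replicate 2. The *gel-3* gene, for a glucanosyltransferase that remodels β-1,3-glucan, had 16818 and 15100.1 in controls and 14013 and 22405 in ΔCFIm, which lay on both sides of the controls. The *ccg-13* gene, which the annotation names a clock-controlled gene, had 7612 and 7287 against 7983 and 10072 (0.27, SE 0.19).

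**Figure D3:**
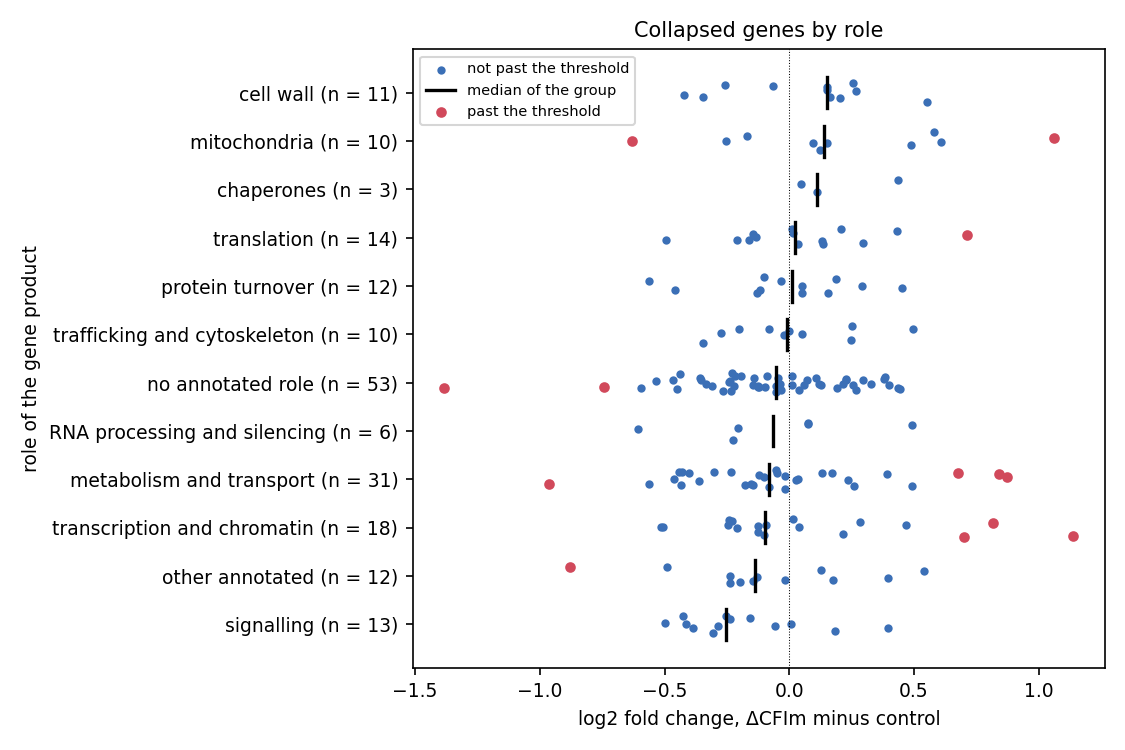
Log2 fold change (ΔCFIm minus control) of each of the 193 collapsed genes, grouped by the role of the product, with a black bar at the median of each group. The medians lie between -0.25 (signalling) and 0.15 (cell wall), and the 13 genes past the limma threshold are spread over metabolism and transport, mitochondria, transcription and chromatin, translation, other annotated genes and genes with no annotated role.

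The 6 RNA processing and silencing genes had 0 past the threshold, beside 8.0% of all tested genes, and edgeR and DESeq2 called 0. An unadjusted p under 0.05 was found in 2, beside 22.5% of all tested genes. The *qde-2* gene, for the Argonaute protein of quelling, the RNA interference pathway of *Neurospora*, had 2 and 3 peaks in the controls, and 364 and 363 normalized counts in controls against 433 and 339 in ΔCFIm. The controls were nearly equal and lay between the mutant libraries. The tRNA-splicing endonuclease gene NCU02036 had 147 and 140.2 in controls and 102 and 86.9 in ΔCFIm (log2 fold change -0.61, SE 0.21, limma adjusted p = 0.0961). The most abundant were NCU02765, annotated as an RNA binding protein, with 9925 and 8840.2 against 7544 and 8482, and NCU07735, annotated as Grp1p, with 6720.5 and 6955 against 6721 and 7735. The study's list held 7 genes annotated to 3′ end processing or poly(A) binding. Of these, 0 were collapsed, beside 193 of all 1447 listed genes, so a count this small is no result about them. None of the 7 passed the limma threshold, with a median log2 fold change of 0.06 (2 had an unadjusted p under 0.05, and edgeR and DESeq2 each called 1).

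None of the 3 chaperone genes passed the limma threshold, beside 8.0% of all tested genes, and edgeR and DESeq2 called 0. An unadjusted p under 0.05 was found in 1, beside 22.5% of all tested genes. NCU09700, for the β subunit of the T-complex chaperonin, which folds actin and tubulin, had 2339 and 1770.2 normalized counts in the controls and 2233 and 2162 in ΔCFIm. NCU04334, *chaperonin-9*, had 519 and 493 against 467 and 583. NCU00472, annotated as CDC37, a partner of the Hsp90 chaperone that serves protein kinases, had 317 and 315 in controls and 442 and 414 in ΔCFIm. Only the CDC37 gene had no overlap (log2 fold change 0.44, SE 0.17, limma adjusted p = 0.149). The study's list held 3 chaperonin genes, of which 0 passed by limma, edgeR or DESeq2 and 0 had an unadjusted p under 0.05, with a median log2 fold change of 0.11. Of the 10 trafficking and cytoskeleton genes, 0 passed, beside the same 8.0%, and edgeR and DESeq2 called 0. In 1 of them the unadjusted p was under 0.05, beside 22.5%. The importin α gene NCU01249, for a carrier of proteins into the nucleus, had 2323 and 2435 against 2092 and 2046. The *spa2* gene, for a protein of the hyphal tip, had 192 and 198 against 267 and 285 (0.50, SE 0.18, limma adjusted p = 0.118).

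The largest fall was in a gene with no annotated role, a class that held 53 of the 193 genes. Of these 53 genes, 2 fell and 0 rose at the limma threshold (3.77%), beside 3.38% lower and 4.62% higher of all tested genes. NCU07449 lies on linkage group I (584437 to 585580). Its level was 2868 and 3471 normalized counts in the controls and 1116 and 1311 in ΔCFIm. The highest mutant value was well below the lowest control, with a log2 fold change of -1.38 (SE 0.18, limma adjusted p = 0.000442), and the control mean was 2.61 times that of ΔCFIm. NCU04199 (linkage group V, 5176750 to 5179200) had 187 and 195 in controls and 111 and 117 in ΔCFIm. It fell with a log2 fold change of -0.74 (SE 0.19, limma adjusted p = 0.0320), and within each genotype its libraries were close together. Of the 12 other annotated genes, 1 fell and 0 rose (8.33%), beside the same shares of all tested genes. That gene, NCU07925 (linkage group IV, 1331201 to 1333102), named LRP16, had 175 and 155 in controls and 82.0 and 96.9 in ΔCFIm. It fell with a log2 fold change of -0.88 (SE 0.21, limma adjusted p = 0.0210). In the same group of other annotated genes, *ff-1*, a gene annotated as PTAB, had 661 and 655 against 614 and 506. NCU06043, of the GPR/FUN34 family of membrane proteins, had 1582 and 1681 against 2419.8 and 2328. Neither passed, although NCU06043 came close (log2 fold change 0.54, SE 0.16, limma adjusted p = 0.0640). The most abundant gene with no annotated role, NCU09089, had 20919 and 18431 against 20920.2 and 21691 and did not pass the test.

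**Figure D4:**
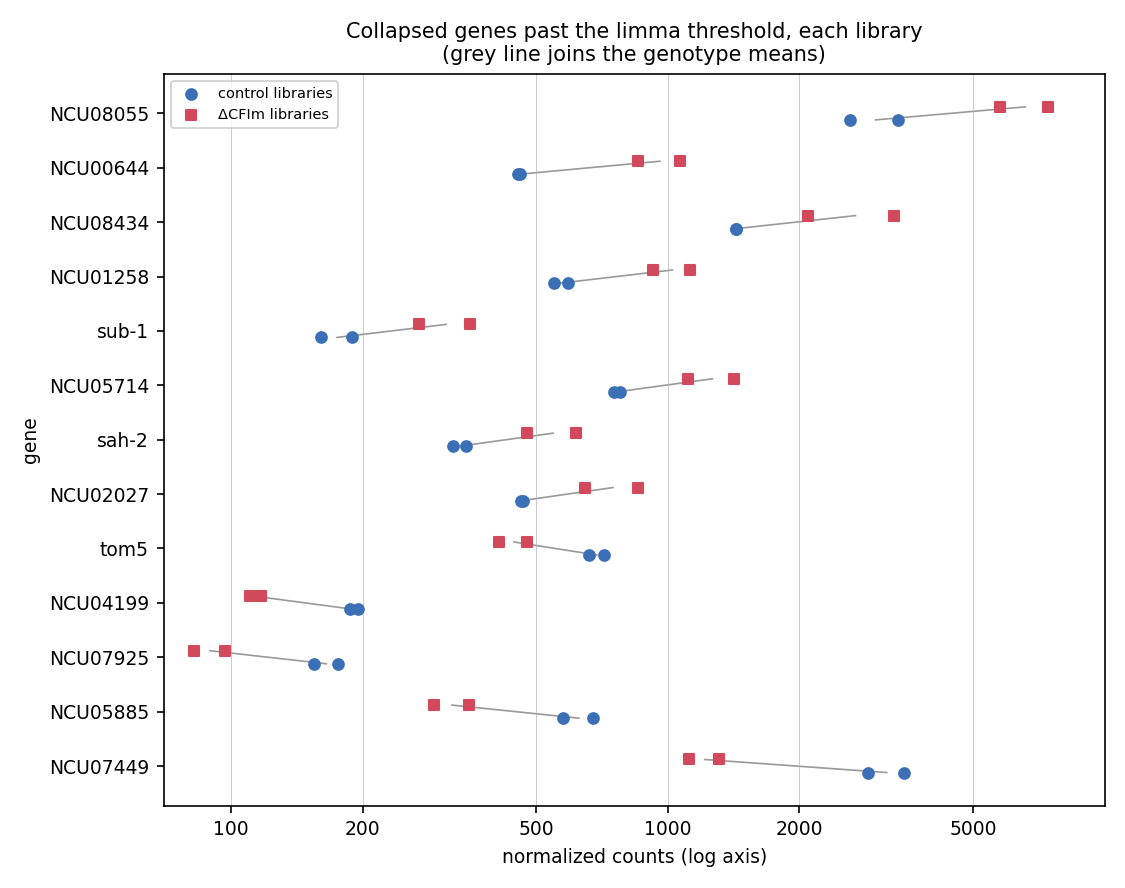
Normalized counts (log axis) in each library for the 13 collapsed genes past the limma threshold, with control libraries as circles, ΔCFIm libraries as squares and a line between the genotype means. The genotypes do not overlap in any of the 13 genes, and the widest gap between ΔCFIm replicates on this axis is in NCU08434, at 3285 and 2090.1.

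The 12 genes with at least 3 peaks in both controls lost at least 2 peaks in both comparisons with the mutant. Of them 1, NCU08055, rose (8.33%, beside 4.62% of all tested genes). The control and ΔCFIm libraries did not overlap in 5 higher and 2 lower genes, beside 25.9% and 26.5% of all tested genes. The remaining 11 did not pass the test. Of these, *chit-1*, *rpn-11*, NCU05363, NCU09861 and NCU03505 are described above. NCU02405, with no annotated role, had 369.7 and 350.0 normalized counts in the controls and 469 and 480.3 in ΔCFIm, and NCU06436 had 608 and 616 against 732 and 872, both without overlap. NCU07574 went the other way, with 905 and 968 against 772 and 819. NCU11263, for a RING finger protein, had 611 and 559.8 against 521 and 549. NCU04493 had 833 and 799 against 862 and 629, and NCU05977, *dihydropicolinate synthase-1*, had 269.9 and 218 against 264 and 218, both with overlap.

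**Figure D5:**
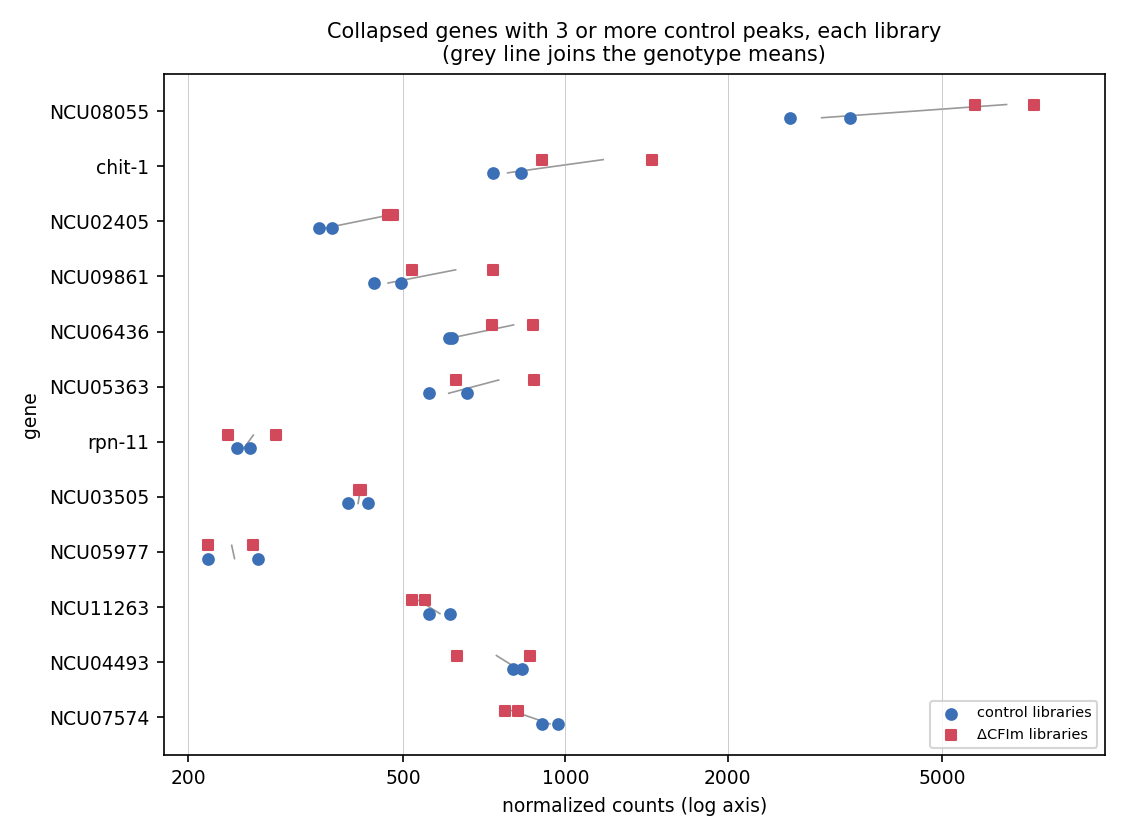
Normalized counts (log axis) in each library for the 12 collapsed genes with at least 3 poly(A) peaks in both controls, with control libraries as circles, ΔCFIm libraries as squares and a line between the genotype means. NCU08055 stands apart at 5746 and 7407 in ΔCFIm against 2610.3 and 3364 in controls, and the genotypes overlap in 5 of the other 11. Of all tested genes, 52.4% did not overlap between genotypes.

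The collapsed genes were spread over all 7 linkage groups. As a share of the study's list on each, they ranged from 8.20% on linkage group VII (10 of 122) to 19.7% on IV (43 of 218), with 51 of 399 genes (12.8%) on I. On the plus strand there were 104 genes and on the minus strand 89. Their median length in the annotation was 2610.0 bp, against 2835.5 bp for the genes with several peaks in all libraries. No difference in these shares was tested.

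Where the next annotated gene begins before the end of a gene, reads in the shared stretch can belong to either. Of the 193 collapsed genes, 23 (11.9%) overlapped the next annotated gene past their 3′ end, the same share as among the genes with several peaks in all libraries, and 24 of the 123 genes that gained peaks did (19.5%). The median distance to the next gene was 448 bp for collapsed genes, 438.5 bp for genes with several peaks in all libraries and 389 bp for those that gained peaks. The strand setting of the read counting is not given in the sources used here. The values of overlapping genes, *tom5* and NCU05885 among them, may therefore include reads of their neighbours or lack reads of the shared stretch. For the peaks, the paper left out those that fell where the 3′ UTRs of tail-to-tail genes overlap.

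In 4 cases a collapsed gene lay next to another, with 3 pairs in tandem, 1 divergent and 0 convergent. The *qde-2* gene follows *sah-2* on the minus strand of linkage group VI with 1909 bp between them, and *sah-2* rose while *qde-2* had a log2 fold change of 0.07 (SE 0.18). The *gel-3* and *ccg-13* genes lie in tandem 4060.0 bp apart on linkage group V, with log2 fold changes of 0.15 and 0.27. The divergent pair NCU09088 and NCU09089, 279 bp apart on linkage group I, had values of 0.06 and 0.12. NCU09088 had 764 and 804 normalized counts in the controls and 857 and 778 in ΔCFIm, with overlap. In the tandem pair NCU09135, for a phosphatidylinositol phospholipase C, and NCU09136, with no annotated role, the log2 fold changes were -0.24 and 0.01, and both genes overlapped between genotypes. NCU09135 had 85.1 and 103 normalized counts in the controls and 64.2 and 97.9 in ΔCFIm, and NCU09136 had 421 and 559.8 against 432 and 554.

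The number of calls changed with the library left out. Without control replicate 2, limma called 2 of the collapsed genes (NCU00644 and NCU07449), and without control replicate 1 it called 7. Without ΔCFIm replicate 1 it called 17, of which 9 were among the 13, and without ΔCFIm replicate 2 it called 30, which included all 13. In the role groups with 0 calls, leaving out ΔCFIm replicate 2 gave 3 cell wall genes (1 higher and 2 lower), 3 signalling genes (1 higher and 2 lower), 1 protein turnover gene (lower) and 1 trafficking and cytoskeleton gene (higher). Leaving out ΔCFIm replicate 1 gave 1 cell wall gene (lower), and the replicate block gave 1 RNA processing and silencing gene (higher). Among the listed pathways, the proteasome had 2 higher genes without ΔCFIm replicate 2, and 3′ end processing had 1 higher gene without it, with median-of-ratios scaling and with the block. The sign of the 13 called genes was the same in each of these fits. Their libraries do not overlap between genotypes, so leaving out a library could not change it. With 2 libraries against 2, the smallest two-sided p of an exact permutation test is 0.333, and every call above rests on the spread that limma pools over genes.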

How the data were processed

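Control and ΔCFIm cultures were compared (N = 2 libraries per genotype, grouped by the genotype in their labels). The authors made strand-specific 3′ end libraries, aligned the reads with STAR to NC12 (FungiDB version 45), counted them per gene with HTSeq-count and scaled them by library size. The deposited values are therefore a normalized signal per gene, called normalized counts. Dividing by the value of 1 read gave whole reads for 100% of values (within 0.01 reads). The strand setting is not given in the sources used here. Poly(A) peak numbers and strands came from the study's list of genes with several peaks, whose columns comparing expression were not used. Peak positions were not analysed here.

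Genes that averaged at least 10 normalized counts were tested with limma (version 3.58.1, R version 4.3.3; eBayes, trended prior). The scale was log2(normalized count + 1), which understates changes of low genes, with Benjamini-Hochberg adjustment. DESeq2 (version 1.42.0) and edgeR (version 4.0.16) on the whole reads, other pseudocounts, filters and scaling, a replicate block, eBayes without a trend and each library left out in turn were alternatives. The tests were checked on simulated data. Names and coordinates came from the RefSeq NC12 annotation, which matched 7792 of 7793 genes.

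The members, the role groups, assigned from product names, and the lists were chosen with earlier results of these data known. The 63 collapsed genes named by rule were those past the threshold, those with at least 3 peaks in both controls, the most abundant and the most changed gene of each role group, adjacent members, and genes with a described role. NCU02158, NCU00050, NCU05364, NCU08980, *cyt-4* and *gul-1* fall outside the rule and were named after their values were seen. NCU02473 and NCU14144 are named only for their position.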

Additional observations from a re-analysis of the deposited data

How the results depend on the processing

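The members called ranged from 6 to 18 with all libraries in the fit. With pseudocounts of 0.1 and 5, a mean of at least 50 and median-of-ratios scaling, the same 13 genes passed. With no filter on low values (genes at 0 in every library left out) 7 passed, and with eBayes without a trend 6 passed, all among the 13. On the recovered reads edgeR called 14, the 13 and NCU08980, and DESeq2 called 12, of which 11 were among the 13 (*tom5* and NCU04199 were lost and NCU06043 was gained). Libraries that share a replicate number had deviations from their genotype means that correlated with r = 0.137. With 2 libraries per genotype the deviations mirror each other, so both pairs give this same value. Whether libraries of the same replicate number shared a batch was not tested. With the replicate number as a block, 18 members passed, including all 13, and 890 of all tested genes, against 556. Leaving out 1 library gave 2 to 30 members and 333 to 1132 of all tested genes, where the lone library of a genotype is assumed to vary like the others. The sign of the 13 genes was the same in every alternative. As their libraries do not overlap between genotypes, leaving out a library could not reverse it. Among the other named genes, 19 changed sign in at least 1 fit that left out a library. Their log2 fold changes ranged over *cry* (-0.57 to 0.058), NCU00635 (-0.22 to 0.25), *rpn-11* (-0.098 to 0.20), NCU03505 (-0.047 to 0.075), *stk-4* (-0.26 to 0.15), NCU04334 (-0.11 to 0.21), NCU04493 (-0.37 to 0.079), *qde-2* (-0.10 to 0.25), NCU05592 (-0.16 to 0.46), NCU05977 (-0.17 to 0.14), NCU06652 (-0.25 to 0.010), NCU07735 (-0.025 to 0.18), NCU07922 (-0.18 to 0.20), *dmm-2* (-0.22 to 0.035), *gel-3* (-0.19 to 0.49), NCU09088 (-0.011 to 0.13), NCU09135 (-0.54 to 0.060), NCU09136 (-0.19 to 0.22) and NCU09700 (-0.090 to 0.31). NCU00635 was also negative with edgeR (-0.0040) and DESeq2 (-0.0031), beside 0.01. The cause of these shifts was not tested. The main log2 fold changes of these 19 genes all lay between -0.25 and 0.15 and none passed the threshold, so their direction is not resolved at this depth and number of libraries.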
